A study of Drosophila melanogaster with 3 samples.

Results

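The tRNA genes of Drosophila melanogaster were taken as all genes annotated as tRNA on the nuclear chromosomes, which gave 290 of 18164 annotated genes once transposable elements were left out. The 22 mitochondrial tRNA genes were not used. Of the 290, 258 lay over 500 bp from the transcription start site (TSS) of every protein-coding transcript and are called distal, and the other 32 are called near. Binding of Nf-YC was read from chromatin immunoprecipitation and sequencing of whole embryos of mixed sex, collected 0 to 18 hours after laying, from a transgenic line that stably expresses Nf-YC with GFP fused to its C terminus. Anti-GFP antibody was used for the immunoprecipitation. The labels gave 1 group of 3 biological replicates and no other genotype, stage or treatment, and 1 control alignment was shared by all. Whole embryos mix many cell types, so strong binding in few cells and weak binding in many cannot be told apart.

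Transfer RNA genes are transcribed by RNA polymerase III (Pol III) from a promoter that lies inside the gene. Its A box and B box are bound by TFIIIC, which places TFIIIB just upstream of the gene, and TFIIIB recruits the polymerase, which stops at a short run of T past the 3′ end. Nf-YC is one of the histone-fold proteins of the trimeric factor NF-Y, known for binding CCAAT at promoters of RNA polymerase II.

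The deposited peak files were 1 list for each replicate, 1 list called on the 3 replicates pooled, and a set of 7476 peaks that passed a threshold on the irreproducible discovery rate (IDR). The replicate lists and the pooled list held exactly 30000 peaks each. The thresholded set was made of the 7476 strongest peaks of the pooled list, so the pooled list adds the weaker peaks. Each peak was placed by its summit, and a tRNA gene was counted when a summit lay within 500 bp of its 5′ end. Peak strength is the authors' signal value, a score with no stated unit that was not scaled between lists. The files hold no read counts, so the depth behind each value is unknown.

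The annotated genes carried the internal promoter that defines them. The A box consensus was found on the sense strand in 270 of the 290 genes (93.1%), against 3.02% of windows of 73 bp taken every 1000 bp along 1 strand of the chromosome arms. The B box core GTTCNANNC was found in 271 genes, against 1.05% of those windows. A run TTTT followed within 30 bp of the 3′ end in 277 genes (95.5%).

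Sequence is given for 5 windows that hold 5 of the 9 thresholded summits at distal tRNA genes, so that the position of the summit can be read against the gene. All are from the Release 6 (dm6) genome, 5′ to 3′, and capitals mark the A box and the B box. The window of tRNA:Thr-AGT-1-1, a threonine tRNA gene in an intron of tai, is chr2L:9236521-9236714 on the minus strand, with the gene starting at base 121 and the summit at base 68. The window of tRNA:Pro-TGG-1-2 is chr3R:17619841-17620080 on the plus strand, with the gene from base 121 to base 192 and the summit beyond it at base 220. Those of tRNA:Leu-CAG-1-3 and tRNA:Leu-CAG-1-6 are chr3L:8060451-8060653 and chr3L:8065939-8066196, both on the minus strand. These leucine genes are identical from base 121 to base 203. The summit lay at base 56 in the first, upstream of the gene, and at base 238 in the second, past its 3′ end. Each summit lay between this gene and another identical copy. The first was at 158 bp from the 5′ end of tRNA:Leu-CAG-1-4, and the second at −234 bp from that of tRNA:Leu-CAG-1-5 (negative upstream). Whether the summit reads as upstream or downstream thus depends on the copy named. The window chr2L:8541552-8541832 on the plus strand holds the divergent pair tRNA:Asp-GTC-1-4 and tRNA:Asp-GTC-1-5. The first reads leftward from base 72, so its boxes appear as reverse complements, and the second reads rightward from base 210, with 1 summit between them at base 186.
tRNA:Thr-AGT-1-1: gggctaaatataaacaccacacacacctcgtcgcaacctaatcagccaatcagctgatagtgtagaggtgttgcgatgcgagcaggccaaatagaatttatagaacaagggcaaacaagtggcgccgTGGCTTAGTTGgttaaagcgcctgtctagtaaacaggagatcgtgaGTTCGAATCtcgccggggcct
tRNA:Pro-TGG-1-2: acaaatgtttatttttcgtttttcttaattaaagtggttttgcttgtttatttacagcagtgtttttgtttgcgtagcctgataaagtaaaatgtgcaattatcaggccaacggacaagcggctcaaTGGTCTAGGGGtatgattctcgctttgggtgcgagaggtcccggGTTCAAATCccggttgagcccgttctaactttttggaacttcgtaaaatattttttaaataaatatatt
tRNA:Leu-CAG-1-3: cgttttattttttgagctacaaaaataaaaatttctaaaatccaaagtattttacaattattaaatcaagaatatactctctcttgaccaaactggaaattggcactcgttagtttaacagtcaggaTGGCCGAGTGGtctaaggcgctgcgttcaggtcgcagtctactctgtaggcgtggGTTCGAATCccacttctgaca
tRNA:Leu-CAG-1-6: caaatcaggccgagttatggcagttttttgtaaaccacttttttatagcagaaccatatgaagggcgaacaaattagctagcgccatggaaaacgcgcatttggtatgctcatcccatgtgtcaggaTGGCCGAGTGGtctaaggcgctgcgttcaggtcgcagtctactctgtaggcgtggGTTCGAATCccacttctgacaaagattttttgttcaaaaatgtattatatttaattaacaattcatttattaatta
tRNA:Asp-GTC-1-4 and tRNA:Asp-GTC-1-5: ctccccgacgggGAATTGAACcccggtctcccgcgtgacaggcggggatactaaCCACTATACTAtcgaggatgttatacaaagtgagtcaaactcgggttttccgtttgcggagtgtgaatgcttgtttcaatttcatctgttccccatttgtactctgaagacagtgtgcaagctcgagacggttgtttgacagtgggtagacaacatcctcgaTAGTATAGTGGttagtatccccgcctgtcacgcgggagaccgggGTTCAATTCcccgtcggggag

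Strong Nf-YC summits were uncommon at tRNA genes. With the weaker peaks of the pooled list included, 157 of 290 (54.1%) had a summit within 500 bp, though 36.9% did in the full list of replicate 3. In the thresholded set, 28 of 290 tRNA genes (9.66%) had a summit within 500 bp, against 30.6% of protein-coding genes by any TSS. The distal tRNA genes counted 16 of 258 (6.20%), and 2.85% of the arm bases that lay equally far from coding TSSs were within 500 bp of a thresholded summit. The near genes, which lie beside coding TSSs, counted 12 of 32 (37.5%), to be read against the 30.6% of protein-coding genes. In the pooled list the distal count rose to 136 of 258 (52.7%), above the 46.1% of protein-coding genes and the 13.9% of distal bases, and the near count to 21 of 32 (65.6%). The distal tRNA share was 2.17 times that of distal bases in the thresholded set and 3.79 times in the pooled list.

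Other annotated genes that do not code for protein give a scale for these shares. Over 500 bp from coding TSSs, 23.2% of 2714 ncRNA genes, 12.5% of 240 snoRNA genes, 27.6% of 29 snRNA genes and 6.31% of 222 pseudogenes had a pooled-list summit within 500 bp. All were below the 52.7% of distal tRNA genes. In the thresholded set the order differed, with 17.2% of the distal snRNA genes, 7.59% of the ncRNA genes, 4.17% of the snoRNA genes and 0.450% of the pseudogenes, beside 6.20% of the distal tRNA genes.

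The excess over bases opened among peaks of middle rank. Among the 2000 strongest pooled peaks, 0 distal tRNA genes had a summit within 500 bp, while 0.817% of distal bases did. At 5000 peaks the count was 7 genes (2.71%), against 1.91% of bases. It climbed from 37 genes at 10000 peaks to 84 at 15000 and 107 at 20000, while the base share went from 3.95% to 6.36% and 8.95%. The distal tRNA genes were touched by 132 distinct pooled summits, of which 9 (6.82%) were in the thresholded set. Their signals ran from 42.1 through a median of 111 to 682, with a list median of 113, and the best rank was 2332. These were therefore summits of ordinary strength for the pooled list.

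**Figure D1:**
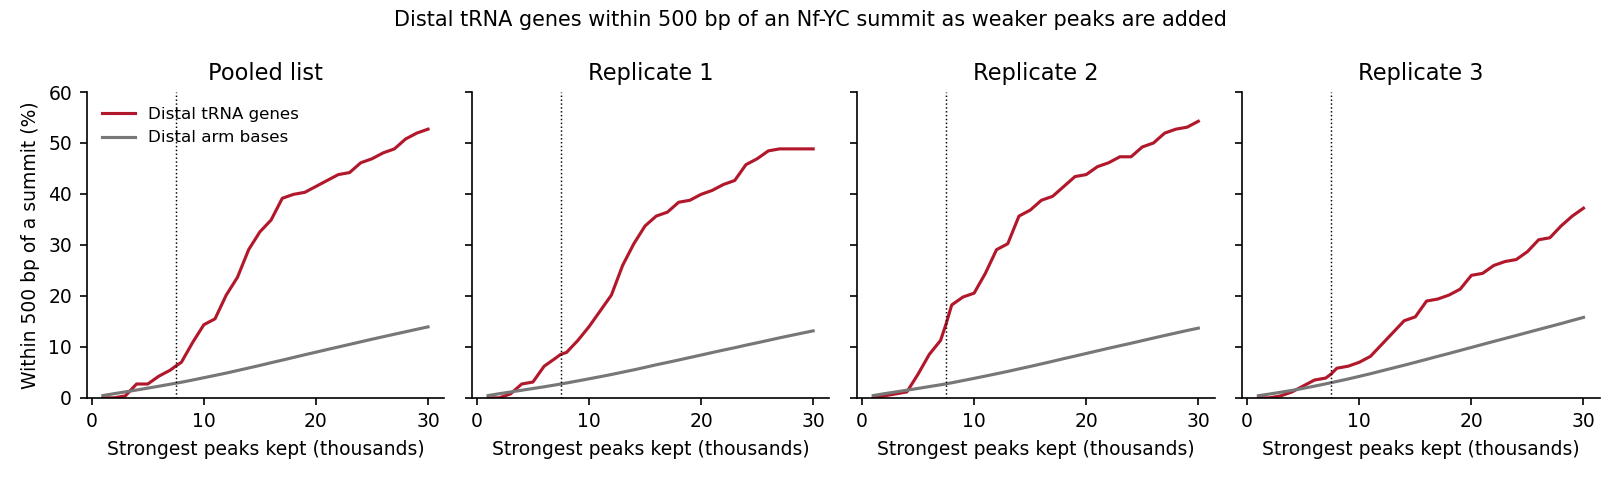
Share of distal tRNA genes (red, 258 genes) and of distal arm bases (grey) within 500 bp of a summit, in percent, against the number of strongest peaks kept, for the pooled list and each replicate list. The dotted line marks 7476 peaks. The red curve is at or under the grey one among the 2000 strongest peaks of every list and ends at 52.7% against 13.9% in the pooled list, and at 37.2% against 15.8% in replicate 3.

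Replicates 1 and 2 carried most of this pattern, and replicate 3 showed less of it. In the full lists, the distal tRNA share was 48.8%, 54.3% and 37.2% in replicates 1, 2 and 3 (46.8% ± 8.71, SD, n = 3). The share of distal bases was 13.1%, 13.7% and 15.8%, and that of protein-coding genes 47.3%, 48.7% and 48.9%. So replicate 3 was lowest at tRNA genes while it was highest for bases and protein-coding genes. The tRNA share minus the base share was 35.7, 40.6 and 21.4 percentage points (32.6 ± 9.95, SD, n = 3), positive in 3 of 3 replicates. Restricted to the 7476 strongest peaks of each list, the differences were 5.82, 11.6 and 1.69 points (6.37 ± 4.98, SD, n = 3). The two-sided exact sign-flip permutation test gave p = 0.25 for both, the smallest that 3 replicates allow, so neither could pass the usual threshold.

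The distal share was below the near share among the strongest peaks of each replicate, and not in every replicate once weak peaks were included. Among the 7476 strongest peaks, the near share was 34.4%, 37.5% and 9.38% (27.1% ± 15.4, SD, n = 3) and the distal share 8.53%, 14.3% and 4.65% (9.17% ± 4.88, SD, n = 3). Distal minus near was −25.9, −23.2 and −4.72 percentage points (−17.9 ± 11.5, SD, n = 3), with a two-sided exact sign-flip p of 0.25. In the full lists it was −16.8 and −17.6 points in replicates 1 and 2 and 2.83 points in replicate 3, with an exact p of 0.5. Near genes lie beside coding TSSs. In the 7476 strongest peaks, 29.5%, 31.2% and 31.8% of protein-coding genes had a summit by any TSS in replicates 1, 2 and 3. The near share was above that of protein-coding genes in replicates 1 and 2 and below it in replicate 3 (9.38% against 31.8%). Why distal and near genes differed was not tested. The share of bases within 500 bp of a coding TSS is not given. The near genes are few, and 2 differences of this kind were tested.

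Across replicates, 61 of 258 distal tRNA genes (23.6%) had a summit within 500 bp in all 3 full lists, against 36.7% of protein-coding genes and 7.04% of distal bases. The summits counted at a gene in the 3 lists need not lie at the same place. A further 55 genes had one in replicates 1 and 2 and none in replicate 3, while only 5 had one in replicates 1 and 3 alone and 7 in replicates 2 and 3 alone. Replicate 3 alone gave 23 genes, replicate 2 alone 17 and replicate 1 alone 5. No summit within 500 bp in any of the lists, the pooled one included, was found for 82 genes. Of the 132 pooled summits, 90 (68.2%) had a summit within 100 bp in replicate 1, 86 (65.2%) in replicate 2 and 43 (32.6%) in replicate 3. For all 30000 pooled summits these shares were 72.0%, 68.7% and 53.4%. The drop in replicate 3 was thus deeper at tRNA genes than over the list, though the summits compared were not matched in rank. A summit within 100 bp in all 3 replicates was found for 25 of the 132 (18.9%), against 34.3% of all pooled summits. Where a pair of replicates both had the summit, log2 signals correlated across summits with a Spearman rho of 0.422 (Pearson r 0.555, 65 summits) for replicates 1 and 2, 0.402 (0.605, 30 summits) for 1 and 3, and 0.406 (0.562, 31 summits) for 2 and 3. Those summits share their libraries and, in part, their loci, so no p is given.

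Summits gathered at the 5′ end in replicates 1 and 2 and in the pooled list, and did so less in replicate 3. Around the 258 distal genes, each pair of a gene and a summit was counted, so a summit in a cluster can count for several genes. The bin with most pooled pairs was the 100 bp just upstream of the 5′ end, where TFIIIB is known to sit, with 35 pairs from 33 distinct summits (13.6 pairs per 100 genes). Replicates 1 and 2 had their highest bins there too, with 30 and 36 pairs from 29 and 34 summits. Replicate 3 had 9 pairs from 9 summits in that bin and its highest, 17 pairs, between 800 and 900 bp upstream. The density of pairs within 200 bp of the 5′ end was 2.31 times that from 1000 to 3000 bp away in the pooled list, 2.44 and 2.51 times in replicates 1 and 2, and 1.43 times in replicate 3. The thresholded set gave 1.22 times. The median distance from the summit to the nearest 5′ end was 116 bp in replicate 1, 108 bp in replicate 2 and 206 bp in replicate 3, counting summits within 500 bp. Peaks here had a median width of 480 bp in the pooled list, several times the length of a tRNA gene, so a summit upstream of the gene is not resolved from 1 inside it.

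**Figure D2:**
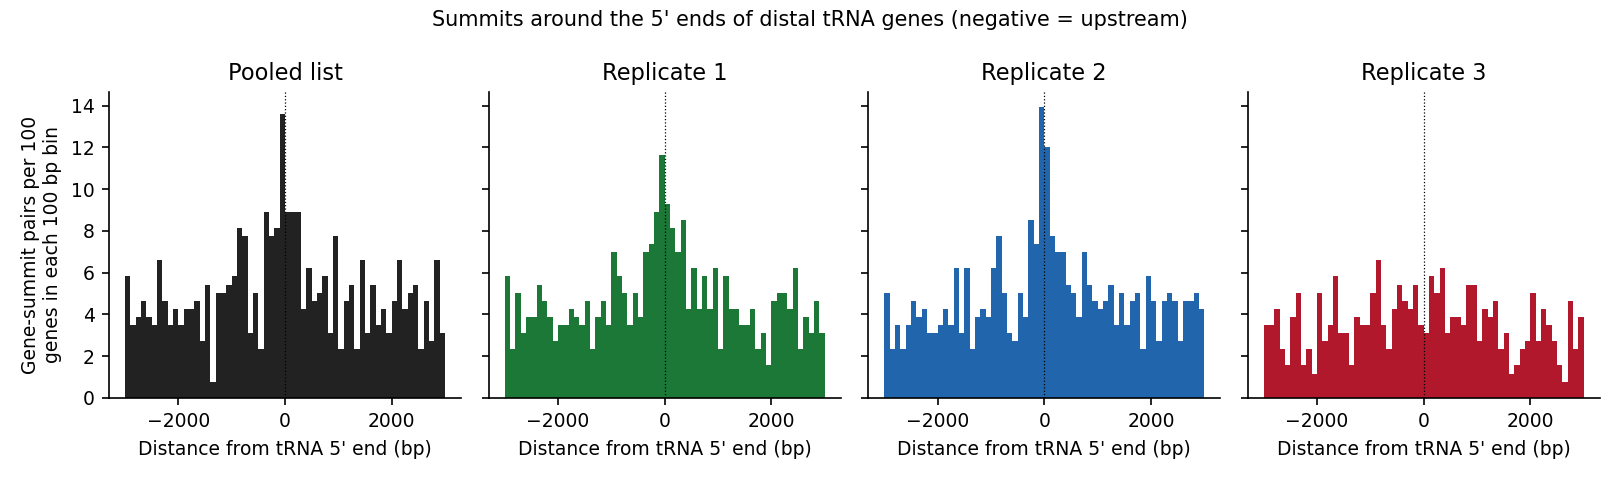
Pairs of a distal tRNA gene and a summit, per 100 genes, in bins of 100 bp, against the distance in bp from the 5′ end of the gene (negative values upstream), for the pooled list and each replicate list. The bin just upstream of the 5′ end holds 13.6 pairs per 100 genes in the pooled list, 11.6 and 14.0 in replicates 1 and 2, and 3.49 in replicate 3, where no central peak is seen.

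Over all distal genes, the excess over bases was larger in closer windows in the pooled list and replicates 1 and 2. Within 100 bp of the 5′ end, 58 of 258 distal genes (22.5%) had a pooled summit, 6.33 times the 3.55% of distal bases. The ratio was 5.25 within 200 bp and 2.73 within 1000 bp. In replicates 1 and 2 the ratio within 100 bp was 6.21 and 7.54. In replicate 3, 18 genes (6.98%) had a summit that close, 1.90 times its base share of 3.68%, and its ratio was higher within 200 bp (2.53), 500 bp (2.36) and 1000 bp (2.02). The thresholded set also had its highest ratio within 200 bp, 3.08 against 1.96 within 100 bp, there from 3 genes. Neighbouring genes can share a summit. For the 108 genes with no other distal tRNA 5′ end within 1000 bp, the ratio within 100 bp was 3.13 in the pooled list. It was 3.24, 4.84 and 2.27 in replicates 1, 2 and 3. Their pooled ratio was no higher within 100 bp than within 200 bp (3.21).

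The tRNA genes lay in clusters, and much of the signal was in them. Chained when neighbouring 5′ ends lay within 1000 bp, the 258 distal genes formed 163 loci, of which 108 held a single gene and the largest 7. Of the 163 loci, 77 (47.2%) had a pooled summit and 9 (5.52%) a thresholded one. At single-gene loci, 38 of 108 genes (35.2%) had a pooled summit, 2.53 times the share of bases, but 2 (1.85%) a thresholded one, below the 2.85% of bases. In clusters, 98 of 150 genes (65.3%) had a pooled summit and 14 (9.33%) a thresholded one. A gene in a cluster can be counted by the summit of its neighbour, and 51 of the 132 pooled summits served several genes. At single-gene loci the gathering rested on few summits. There were 25 pooled summits within 200 bp, 1.79 times the density of the flanks, with ratios of 1.38, 2.04 and 1.27 in replicates 1, 2 and 3. The thresholded set, with 2 summits there, had a ratio of 0.667, lower at the centre than in the flanks.

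With distance from coding genes the base share fell and the pooled tRNA share changed little. Over 500 and up to 1000 bp from the nearest coding TSS, 27 of 47 distal tRNA genes (57.4%) had a pooled summit, beside 19.1% of the bases in that range. Up to 2000 bp the shares were 54.5% of 44 genes and 16.9% of bases, up to 5000 bp 49.1% of 57 genes and 16.5%, and up to 10000 bp 51.0% of 51 genes and 15.1%. Beyond 10000 bp, 31 of 59 genes (52.5%) still had a pooled summit, beside 8.67% of bases. In replicate 3 the tRNA share was 31.9%, 27.3%, 33.3%, 41.2% and 49.2% from the nearest to the farthest range, higher far from coding TSSs. Thresholded summits were found at 3, 5, 6, 0 and 2 genes in the same order, too few for a trend. Inside coding genes, 66 of 117 distal tRNA genes (56.4%) had a pooled summit, and between genes 70 of 141 (49.6%). The order was the other way in the thresholded set, with 3 (2.56%) and 13 (9.22%), and in replicate 3, with 31.6% and 41.8%. Of the 117, 112 were intronic and 5 overlapped an exon of a coding gene.

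**Figure D3:**
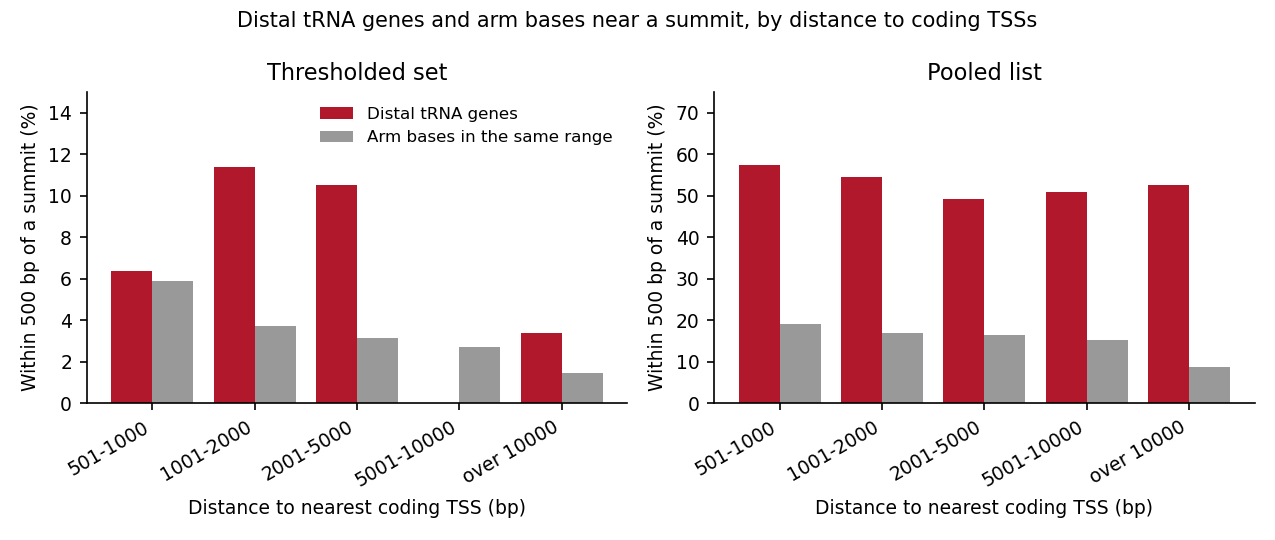
Share within 500 bp of a summit, in percent, of distal tRNA genes (red) and of arm bases (grey) in 5 ranges of distance to the nearest coding TSS, in bp, for the thresholded set (left) and the pooled list (right, with its own axis). Red bars in the pooled list stay between 49.1% and 57.4%, while grey bars fall from 19.1% to 8.67%.

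The chromosome X stood below the autosomal arms. Of its 23 distal tRNA genes, in 13 loci, 3 (13.0%) had a pooled summit within 500 bp, while 17.0% of its distal bases did. The counts on X were 0, 2 and 5 genes in replicates 1, 2 and 3. On the other arms with tRNA genes the pooled share was 47.2% on 2L, 62.5% on 2R, 59.1% on 3L and 52.2% on 3R, each above its base share, which ran from 12.4% to 13.7%. The largest distal locus in the genome, 7 genes for arginine and serine tRNAs between tRNA:Arg-TCG-2-1 and tRNA:Arg-TCG-3-4, lies on X (14014814 to 14017284). It had 1 pooled summit, near 2 of its genes, and no summit in any replicate list within 500 bp. Its 7 genes are among the 23 on X. Of the 50-base stretches that overlapped each gene, 22.95% to 78.69% were unique in the genome. The median over all distal tRNA genes was 77.05%. Whether this affected the peak calls was not tested.

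The other large clusters behaved differently from each other. A locus of 6 genes on 3R (8139533 to 8141042), with tRNAs for asparagine and arginine between tRNA:Asn-GTT-1-10 and tRNA:Arg-ACG-1-10, had a pooled summit near all 6 genes. Replicates 1, 2 and 3 had summits near 6, 5 and 6 of them. A locus of 6 genes on 3L (3095737 to 3097590), with tRNAs for cysteine and lysine between tRNA:Cys-GCA-1-1 and tRNA:Cys-GCA-1-4, had summits near 6 of 6 genes in the pooled list and in replicates 1 and 2, and near 0 in replicate 3. Neither locus had a thresholded summit.

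Every isotype had at least 1 distal gene with a pooled summit, and the isotypes spread widely. Alanine tRNA genes had 13 of 15, glutamate 12 of 17 and leucine 13 of 20, whereas aspartate had 3 of 11, tyrosine 2 of 7 and elongator methionine 1 of 6. The alanine counts were 13, 14 and 11 of 15 in replicates 1, 2 and 3, and the tyrosine counts 3, 1 and 0 of 7. Thresholded summits were found near 5 leucine, 3 alanine, 2 arginine and 2 serine genes, and near 1 gene each for threonine, glutamate, proline and aspartate. With so few genes in an isotype, and several in 1 cluster, these counts are a description.

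**Figure D4:**
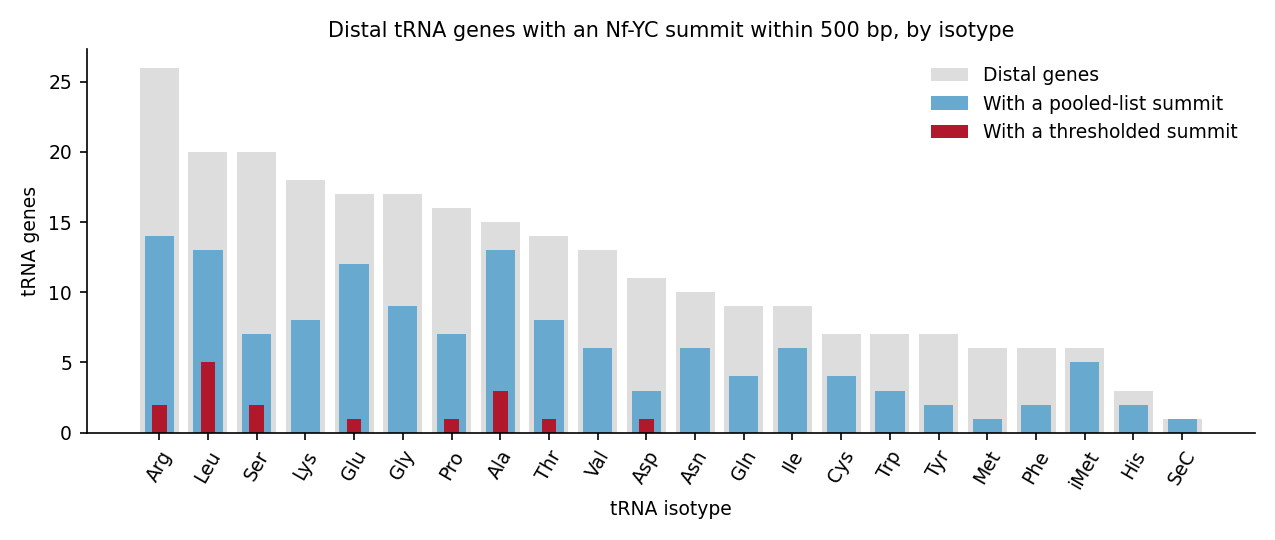
Number of distal tRNA genes by isotype (grey), and of those with a pooled-list summit (blue) or a thresholded summit (red) within 500 bp. Blue reaches 13 of 15 for alanine (Ala) and 5 of 6 for initiator methionine (iMet), and 1 of 6 for elongator methionine (Met).

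Initiator methionine tRNA starts every protein, and the pooled summits at its genes were outside the thresholded set. Of 6 distal iMet genes, 5 had a pooled summit within 500 bp and 4 had some summit within 500 bp in all 3 replicates, while 0 had a thresholded one. Over all distal tRNA genes these shares were 52.7%, 23.6% and 6.20%. The median signal of the pooled list was 113. The divergent pair tRNA:iMet-CAT-1-1 and tRNA:iMet-CAT-1-2 on 2R shared a pooled summit of signal 222 (rank 8277), with 113, 77.5 and 18.4 at the summits within 100 bp of it in replicates 1, 2 and 3. The pair tRNA:iMet-CAT-1-4 and tRNA:iMet-CAT-1-5 on 3L, in an intron of ome, shared 1 of signal 194 (rank 9436), with 79.9 and 92.5 in replicates 1 and 2 and no summit within 100 bp of it in replicate 3. At tRNA:iMet-CAT-1-3 the pooled signal was 56.9, with 20.6 in replicate 3 and none within 100 bp in the others, and tRNA:iMet-CAT-2-1, in an intron of Mmp2, had none in any list. The single selenocysteine tRNA gene, tRNA:SeC-TCA-1-1, which decodes UGA at selenoprotein codons, had a pooled signal of 64.0, matched within 100 bp in replicate 3 alone, with 27.5. Within 100 bp of the pooled summit, replicate 3 thus had the lowest score or no summit at both iMet pairs, and the only match at the other 2 genes. Beyond that limit, replicate 3 had a summit of signal 17.05 within 500 bp of the second pair. Replicate 2 had one of 27.56 at 55 bp from the 5′ end of tRNA:SeC-TCA-1-1. Scores were not scaled between lists.

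Identical copies of a tRNA gene often differed in whether they had a summit. The 290 genes held 95 distinct sequences, and 238 genes had at least 1 identical copy. Of 40 families of identical distal genes, with 208 genes, 26 held genes with and genes without a pooled summit, 8 had a summit at all genes and 6 at none. Over all distal genes the share was 52.7%, and how many mixed families that share alone would give was not tested. The lysine family tRNA:Lys-CTT-1 had a pooled summit at 7 of 12 genes, tRNA:Gly-GCC-1 at 5 of 11, tRNA:Ala-AGC-2 at 8 of 9 and tRNA:Asp-GTC-1 at 2 of 9. The leucine family tRNA:Leu-CAG-1 had one at 6 of 8, 5 of them thresholded. Reads from identical copies cannot be told apart by the gene itself, and how the authors placed such reads is not given in the sources used here. Over distal genes, a median of 96.1% of the 50-base stretches in the window, and 77.1% of those that overlapped the gene, were unique in the genome. These medians were 94.8% and 76.9% for genes with a pooled summit and 96.5% and 77.5% for those without. Of 8 genes with under 50% unique stretches, 1 had a pooled summit, against 135 of 250 others (54.0%).

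The 9 thresholded summits at distal tRNA genes reached 16 genes. Their offset from the nearest distal 5′ end, negative where upstream, had a median of −53.0 bp, with 5 upstream and 4 downstream. It was −24.0 bp from the nearest 5′ end of any tRNA gene, since the summit of tRNA:Asp-GTC-1-4 lay nearer to its near neighbour tRNA:Asp-GTC-1-5. The strongest lay 374 bp downstream of the 5′ end of tRNA:Ala-TGC-2-1, an alanine tRNA gene between genes on 2R (peak 17392413 to 17392831), with a signal of 682 and rank 2332. Its replicate signals were 311, 268 and 158 in replicates 1, 2 and 3 (246 ± 78.8, SD, n = 3). The second, 205 bp downstream of the 5′ end of tRNA:Glu-TTC-1-5, a glutamate gene on 2R (19727168 to 19727504) and 13455 bp from a coding TSS, had a signal of 540 and replicate signals of 249, 199 and 94.6 (181 ± 78.7, SD, n = 3). This summit lay 174 bp from the start of snoRNA:185, closer than to the tRNA gene, and was the only 1 of the 9 with another non-tRNA start site closer. In both, every replicate held the summit and replicate 3 had the lowest score. Since scores were not scaled between lists, these SDs also hold differences in scale. The median score at distal tRNA summits was 65.2, 47.0 and 25.0 in replicates 1, 2 and 3.

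The third was that of tRNA:Thr-AGT-1-1, in an intron of tai, which encodes a nuclear receptor coactivator. It was 1 of only 2 thresholded summits at single-gene loci, with a signal of 515, and lay at an offset of −53 bp and 14395 bp from any coding TSS (2L, 9236511 to 9236813). Replicate signals were 294, 169 and 72.4 (178 ± 111, SD, n = 3). The fourth and the fifth lay on 2R between genes. One, at an offset of −157 bp from tRNA:Ser-TGA-2-1 (23072184 to 23072663), had replicate signals of 263, 152 and 83.3 (166 ± 90.9, SD, n = 3). The other, at an offset of −190 bp from tRNA:Arg-CCT-1-2 (20000318 to 20000797), had 223, 137 and 103 (154 ± 61.5, SD, n = 3). These 5 strongest loci had a summit within 100 bp in all 3 replicates, in ranks of 5688 or better.

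The 4 weaker ones were less repeatable. At tRNA:Pro-TGG-1-2 on 3R (17619820 to 17620299), the middle gene of a locus of 3, the summit lay 99 bp into the direction of transcription. Its signals were 175, 147 and 23.6 in replicates 1, 2 and 3 (115 ± 80.4, SD, n = 3), and its rank in replicate 3 was 19100. At tRNA:Asp-GTC-1-4 on 2L (8541497 to 8541976) the signals were 151 and 147 in replicates 1 and 2, with none within 100 bp in replicate 3. This gene lies 524 bp from the nearest coding TSS, that of Sema1a, and the summit itself lay 410 bp from it, so it is distal by a narrow margin. At tRNA:Leu-CAG-1-3 on 3L (8060358 to 8060837) the signals were 176 and 95.7 in replicates 1 and 2, again with none in replicate 3. At tRNA:Leu-CAG-1-6 on 3L (8065900 to 8066072), in an intron of Sarm, they were 113 and 33.3 in replicates 2 and 3, with none within 100 bp in replicate 1. Replicate 1 did have a summit of signal 133 (rank 7112) beyond that limit, at 10 bp from the 5′ end of the gene, where the thresholded summit was at 117 bp. At none of these 4 did replicate 3 hold the summit at a rank among its 7476 strongest.

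**Figure D5:**
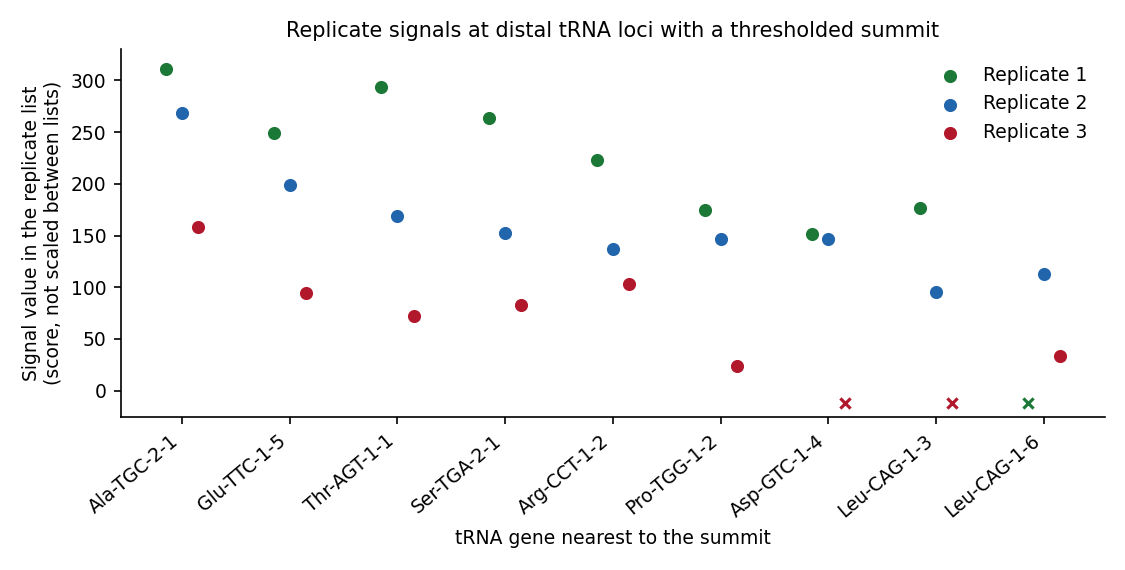
Signal value (a score, not scaled between lists) of the summit within 100 bp of each of the 9 thresholded summits at distal tRNA loci, in replicates 1 (green), 2 (blue) and 3 (red), named by the nearest tRNA gene. Crosses under 0 mark a replicate with no summit within 100 bp. The 6 loci at the left have all 3 replicates, with replicate 3 lowest, and the 3 at the right lack one.

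At the edge of the 500 bp window, the farthest genes counted were tRNA:Ala-AGC-2-2 at 322 bp, tRNA:Ser-TGA-1-1 at 324 bp and tRNA:Ala-TGC-2-1 at 374 bp from a thresholded summit. The nearest left out were tRNA:Lys-CTT-1-10 at 551 bp, tRNA:Trp-CCA-2-3 at 598 bp and tRNA:Arg-TCT-1-1 at 623 bp. The median distance from a distal tRNA gene to a thresholded summit was 8614 bp.

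At the 32 near tRNA genes a coding promoter lies in the same window. The 12 with a thresholded summit had 10 distinct summits between them, and the summit was closer to the tRNA 5′ end at 8 genes and closer to a coding TSS at 4. The strongest was that of tRNA:Tyr-GTA-1-8, a tyrosine tRNA gene on 3R, with a signal of 1839 (rank 773) and 837, 728 and 265 in replicates 1, 2 and 3. It lay 218 bp from the tRNA gene and 226 bp from a TSS of CG8036, so its place does not tell one from the other. At tRNA:Leu-TAA-2-1 the summit was at −247 bp, with a signal of 500 and 187, 222 and 96.3 in the replicates. At tRNA:Thr-AGT-1-4 it was at −98 bp, with a signal of 353. The pair tRNA:Gln-TTG-1-2 and tRNA:Gln-TTG-1-3 shared a summit of signal 431, at 153 and 96 bp, with no summit in replicate 3. Some of these summits lay over 300 bp from any coding TSS, with 328 bp at the leucine gene, 343 bp at the glutamine pair and 355 bp at the threonine gene. The coding gene nearest to the tRNA gene had a thresholded summit at one of its TSSs for 13 of the 32, beside 30.6% of all protein-coding genes. Some of the 32 have the same nearest coding gene, such as CG8036, so the count is not of separate coding genes.

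CCAAT was about as common at tRNA summits as elsewhere. It was searched on both strands within 100 bp of the summit, and was found at 45 of 132 pooled summits at distal tRNA genes (34.1%), at 35.1% of all pooled summits and in 35.4% of windows of 201 bp along the arms. Among thresholded summits it was found at 4 of the 9 at distal tRNA genes, against 38.1% of all 7476. A match is a string of letters and not a bound site.

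The internal promoter was found in most tRNA genes with and without a summit. The A box was found in 92.6% of distal genes with a pooled summit and 95.1% of those without, the B box core in 89.7% and 97.5%, and TTTT past the 3′ end in 95.6% and 97.5%. CCAAT within 500 bp upstream was found in 57.4% and 70.5%, lower where a pooled summit was present. The thresholded set went the other way, with CCAAT upstream of 12 of the 16 distal genes that had a thresholded summit, a share above both. The share of arm windows of that length with CCAAT is not given, so no link between CCAAT and summits is drawn from these shares.

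Genes for the Pol III machinery are coding genes, and many had strong summits. Of 27 matched genes in a list of polymerase subunits, transcription factors of Pol III, snRNA promoter-binding factors, the repressor Maf1 and RNA processing factors, 14 (51.9%) had a thresholded summit within 500 bp of a TSS, against 30.6% of all protein-coding genes, and 16 a pooled one. One further symbol was not matched. Among Pol III subunit genes, Polr3E had the strongest summit, at −240 bp from a TSS, with a signal of 2640 and 1236, 850 and 554 in replicates 1, 2 and 3. Those of Polr3F (460), Polr3D (405), Polr3G (358), Polr3K (312) and Polr1D (532), the last encoding a subunit shared with polymerase I, were weaker. Of the TFIIIB genes, Brf had a signal of 1751, with 695, 530 and 563 in the replicates. Bdp1 had 1191, with 457, 329 and 414. Tbp, the TATA-binding protein, had 304, and Trf, the related protein known to take its place in TFIIIB at Drosophila tRNA genes, had no thresholded summit. CG7099 (1715), l(2)37Cd (703) and Pbp49 (417) followed. RNaseZ, which trims the 3′ end of tRNA precursors, had 858, and La, which binds the 3′ end of new Pol III transcripts, had 433. Of the 14 signals, 6 were above 682, the highest at a distal tRNA gene. Polr3A and Polr3B, the genes of the largest subunits, had no summit in any list.

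Among other genes transcribed by Pol III, the 5S rRNA genes and the rest differed. Of 110 genes, 4 (3.64%) had a thresholded summit, and without the 5S rRNA genes 4 of 10, beside 6.20% of distal tRNA genes and 2.85% of distal bases. The snRNA:7SKa gene had a signal of 624, with 295, 199 and 139 in replicates 1, 2 and 3. RNaseMRP:RNA had 380, with 145, 151 and 67.7. The U6 genes snRNA:U6:96Ab and snRNA:U6:96Ac shared a summit of signal 451, with 226 and 145 in replicates 1 and 2 and none in replicate 3. Of the 100 genes annotated as 5S rRNA, pseudogenes included, 0 had a thresholded and 1 a pooled summit. The 5S genes form a tandem repeat, and how many of their 50-base stretches are unique was not examined.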

How the data were processed

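Peak lists came from 3 replicates of 1 group. Per the deposited notes, the authors called replicate peaks from each alignment and 1 shared control, then on the pooled alignments, and derived the thresholded set from those 4 lists. The build is dm6, per the labels. For the aligner, caller and IDR threshold: not given in the sources used here. Peak strength is the authors' deposited signal value, a score. The deposited −log10 q-value was not used. Summits are the deposited offsets from the peak start. Read counts were not analysed here, so no interval on depth is given.

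Genes came from Ensembl release 115 (BDGP 6.54), and sequence from the Release 6 genome, whose arm lengths hold all peaks. Python 3.11.15 and numpy 2.4.6 were used. Coordinates are 1-based. The 5′ end is the annotated gene start on its strand, and offsets follow transcription. The share of bases is an exact count over arm positions. The CCAAT search covered both strands, and the boxes were sought on the sense strand. Replicates were compared by an exact sign-flip permutation test over 3 differences. Counting was tested on simulated data. Members and lists were chosen with earlier results of these data known.

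Named genes were the distal loci with a thresholded summit (up to 12; 9 exist), the 5 near genes with the strongest summit closer to the tRNA than to a coding TSS, the largest loci, the 3 genes on either side of 500 bp, all iMet and SeC genes, and listed Pol III genes with a thresholded summit. Genes without one (Polr3A, Polr3B, Trf) and families were named after their values were seen.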

Additional observations from a re-analysis of the deposited data

How the results depend on the processing

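Of 65 alternative values over 8 results, 46 stayed within the spread between replicates (or kept their sign, for differences), 19 moved beyond it and 0 differences changed sign. That spread was wide. For the distal share of 6.20% it was an SD of 4.88 points, so falls to 2.71% or 1.85% counted as within it. For the thresholded set, a window of 1000 bp gave 15.9% of all tRNA genes, 12.4% of distal genes and 11.0% of loci, against 9.66%, 6.20% and 5.52% within 500 bp. All pooled peaks gave 54.1%, 52.7%, 65.6% and 47.2% of all, distal and near genes and of loci. The near share of 37.5% was 18.8% within 200 bp, 12.5% in the upper part of the set by signal, 21.9% when the peak had to overlap the gene and 19.0% with near set at 1000 bp. Without 1 replicate, peaks had to be among the 7476 strongest of both other lists, a stricter set of 4652 to 5321 peaks. The shares then ran from 3.45% to 8.28% for all tRNA genes, 2.71% to 5.43% for distal genes, 9.38% to 31.2% for near genes and 3.07% to 4.91% for loci, lowest without replicate 1 or 2 and highest without replicate 3. The causes were not tested. The share in all 3 full lists (23.6%) was 25.6% to 45.0% without 1 replicate, highest without replicate 3, and was 2.71% in the strongest 7476 peaks of each and 6.20% within 200 bp. The median offset from distal genes of −53.0 bp was 99.0 bp with summits up to 1000 bp away, and −59.0 to −53.0 bp without 1 replicate. Leaving out 1 replicate gave 3.75 to 8.71 points for distal genes minus bases and −24.5 to −13.9 for distal minus near genes. At single-gene loci, an alternative chosen after seeing the data, the distal share was 1.85%, under that of bases. No paired analysis was possible because the labels give only 1 group. Limits are 3 replicates, an unknown depth, lists cut at 30000 peaks and peaks wider than a tRNA gene.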
